A study of Mus musculus with 4 samples.

Results

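The regions described here were called as peaks in both wild-type and Chaf1b-deficient mouse double-positive (DP) thymocytes. At the peak summit the Chaf1b-deficient cells had at least as many reads as wild-type cells, although the knockout list rested on fewer reads. The assay was ATAC-seq: a transposase puts sequencing adapters into open DNA. KO samples came from C57BL/6 mice of the genotype Cd4-cre;CHAF1bfloxp/floxp, and WT samples from C57BL/6 mice with CHAF1bfloxp/floxp alleles and no Cre. Both groups thus carried the floxed alleles, and Cre and the deletion of Chaf1b were present in the same group and cannot be told apart. Cre was driven by Cd4 sequence, so deletion was directed to thymocytes and T cells that use it. The labels read here state no ages. The 4 samples were 2 per group, and each group's replicates were pooled by the authors into 1 peak list.

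KO and WT peak intervals on chromosomes 1 to 19 and X were paired where they overlapped by 1 bp or more and each had a single partner, which gave 6823 pairs. The summit pileup, the number of extended reads stacked at a peak's highest point, and the local background were solved from the deposited fold enrichment and p-value. The 6690 eligible pairs had a local background under 4 times the genome background in both lists. The members were chosen by the pileups themselves: they are the 538 eligible pairs whose KO pileup was equal to or above the WT pileup, 8.04% of those eligible. For that reason all pileups, folds, widths and backgrounds below are a description and carry no test. With 1 list per group no difference had a replicate check, and the intervals given cover counting error only.

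Chaf1b encodes p60, a subunit of the histone chaperone CAF-1 (chromatin assembly factor 1). The complex places histones H3 and H4 on newly copied DNA. Thymocytes multiply before and on entry to the DP stage, and the nucleosomes laid down behind the replication fork limit which sites stay accessible. Open sites at gene starts are mostly promoters of genes in general use, while sites inside and between genes include enhancers and other elements. DP thymocytes carry both coreceptors, CD4 and CD8, and give rise to conventional T cells and to invariant natural killer T (iNKT) cells.

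The sequences of 4 promoter windows are shown because a member overlapped each of them and a fixed set of motifs could be read there. At Ctcf the KO summit lay outside the window. They run from 250 bases before to 50 bases after an annotated start (RefSeq, GRCm38.p6, the assembly behind mm10), 5′ to 3′ on the gene's strand. Capitals mark matches to the motifs named with the promoter results below.
Arpp21 promoter, chr9:112217302-112217601, minus strand: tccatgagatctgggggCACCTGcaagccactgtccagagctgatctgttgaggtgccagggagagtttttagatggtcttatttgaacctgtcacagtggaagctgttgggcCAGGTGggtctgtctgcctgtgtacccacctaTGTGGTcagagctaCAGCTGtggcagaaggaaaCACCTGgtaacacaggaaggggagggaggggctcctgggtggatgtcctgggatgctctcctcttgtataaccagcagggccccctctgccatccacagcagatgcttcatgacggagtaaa
Metap1 promoter, chr3:138489333-138489632, minus strand: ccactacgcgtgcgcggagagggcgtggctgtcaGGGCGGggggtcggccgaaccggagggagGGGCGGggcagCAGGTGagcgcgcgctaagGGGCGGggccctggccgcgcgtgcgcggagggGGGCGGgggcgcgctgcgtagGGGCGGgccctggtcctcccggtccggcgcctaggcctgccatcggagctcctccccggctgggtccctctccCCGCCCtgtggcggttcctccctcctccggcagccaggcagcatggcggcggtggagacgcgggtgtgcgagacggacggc
Mir22hg promoter, chr11:75461289-75461588, plus strand: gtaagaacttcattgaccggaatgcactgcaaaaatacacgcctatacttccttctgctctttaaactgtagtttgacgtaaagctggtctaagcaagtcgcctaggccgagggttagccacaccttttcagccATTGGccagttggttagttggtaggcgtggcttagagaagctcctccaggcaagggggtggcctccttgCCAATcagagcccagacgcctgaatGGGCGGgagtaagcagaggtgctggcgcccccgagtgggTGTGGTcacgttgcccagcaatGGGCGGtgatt
Ctcf promoter, chr8:105636288-105636587, plus strand: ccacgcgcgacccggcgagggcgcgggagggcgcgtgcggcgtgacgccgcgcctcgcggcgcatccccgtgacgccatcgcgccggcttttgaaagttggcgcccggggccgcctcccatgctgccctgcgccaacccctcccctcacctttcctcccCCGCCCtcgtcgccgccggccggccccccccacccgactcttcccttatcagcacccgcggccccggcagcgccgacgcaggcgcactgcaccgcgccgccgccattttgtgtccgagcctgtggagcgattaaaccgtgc

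The strongest member at a gene end covered the annotated miRNA Mir6236, whose mature sequence is shown with its seed, bases 2 to 8, in capitals.
mmu-miR-6236, chr9:110281353-110281371, plus strand: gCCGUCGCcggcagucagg

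The genome background was 1.03 reads in KO and 1.37 reads in WT, which puts KO depth at 0.752 of that of WT. At that ratio a site of equal accessibility would hold 42.9% of its summed reads in KO. Over all eligible pairs KO held 39.4% of the summit reads, and the median ratio of KO to WT pileup was 0.652. Most members exceeded WT by few reads. In 182 members the pileups were equal, in 221 KO had 1 or 2 reads more, in 26 it had 6 or more, and in 5 it had 10 or more. The median KO pileup of the members was 16 reads, against 14 in WT, a median log2 ratio of 0.11. KO was at least 1.5 times WT in 13 members and at least 2 times WT in 1.

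**Figure D1:**
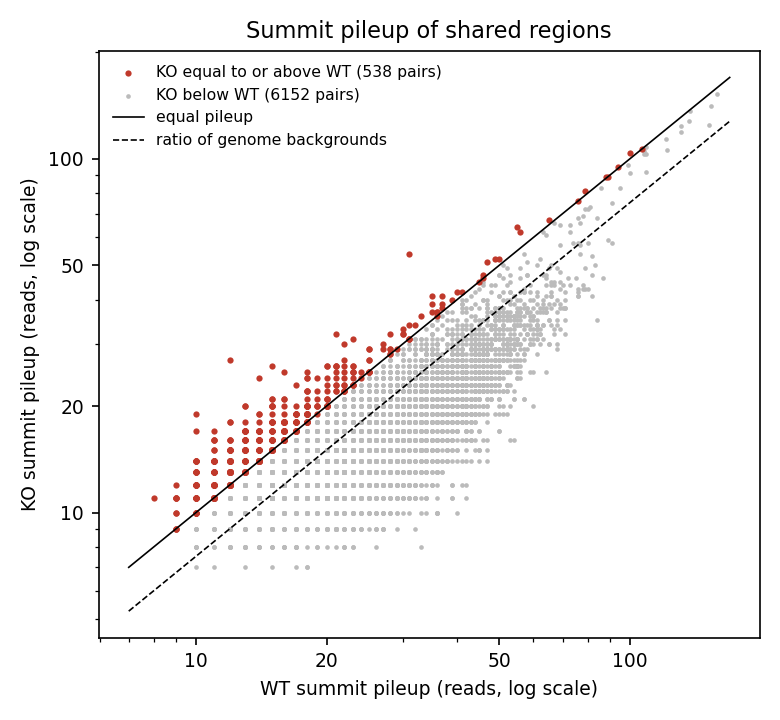
Summit pileup of each eligible pair, KO on the vertical and WT on the horizontal axis, both on log scales, with the 538 members in red and the 6152 other pairs in grey. The solid line marks equal pileup and the dashed line the ratio of genome backgrounds, 0.752. Members follow the solid line up to 107 reads.

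The share of members varied with the number of reads. They made up 21.3% of eligible pairs with under 31 summed reads (279 of 1311), 7.60% of those with 31 to 40 (155 of 2040), 2.94% of those with 41 to 60 (66 of 2247), 2.69% of those with 61 to 100 (26 of 966) and 9.52% of those with over 100 (12 of 126, 95% Clopper-Pearson interval 5.02 to 16.05%). How often a WT region had a KO partner also varied with its pileup. Of WT regions with 7 to 10 reads, 5.89% had an eligible KO partner (53 of 900), and 81.1% of those pairs were members (43 of 53). Of WT regions with 11 to 15 reads, 16.9% had an eligible KO partner, against 94.5% of those with 31 to 50. A pair needs a called KO region, so member shares of pairs with few reads are not independent of peak calling. Counted over all WT regions rather than over pairs, members were 5.99% of the WT regions with 11 to 15 reads (279 of 4658), 1.34% of those with 31 to 50 (25 of 1865) and 2.72% of those with over 50 (10 of 368, 1.31 to 4.94%). The last 2 intervals overlap, so the upturn at high pileup was not resolved when counted this way.

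Position relative to genes was not used to choose the members. A pair was placed at a gene end when it lay within 1000 bp of either annotated end of a gene, which takes in promoters and 3′ ends. Of the members, 45.0% were at gene ends (242 of 538, 40.7 to 49.3%), 30.3% inside genes (163) and 24.7% between genes (133). Of the other pairs, 63.7% were at gene ends (3917 of 6152), 24.4% inside genes and 11.9% between genes. Put as shares of eligible pairs, 5.82% at gene ends, 9.78% in gene bodies and 15.4% between genes were members. No test between the classes was made.

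The gap between intergenic and gene-end shares was widest among pairs with many reads but did not grow steadily. With over 60 summed reads, members numbered 5 among 752 gene-end pairs (0.665%, 0.216 to 1.54%) and 10 among 215 gene-body pairs (4.65%, 2.25 to 8.39%). Among 125 intergenic pairs there were 23 (18.4%, 12.04 to 26.3%). With under 31 reads the shares were 19.6%, 21.6% and 26.4%, and the intervals of the first and the last overlapped. At 31 to 40 reads they were 5.73%, 8.66% and 13.7%, and at 41 to 60 reads 1.82%, 4.65% and 6.02%, the smallest gap of these groups in percentage points. Over all eligible pairs with over 100 reads, the median ratio of KO to WT pileup was 0.603 at 56 gene ends and 0.908 at 43 intergenic sites.

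**Figure D2:**
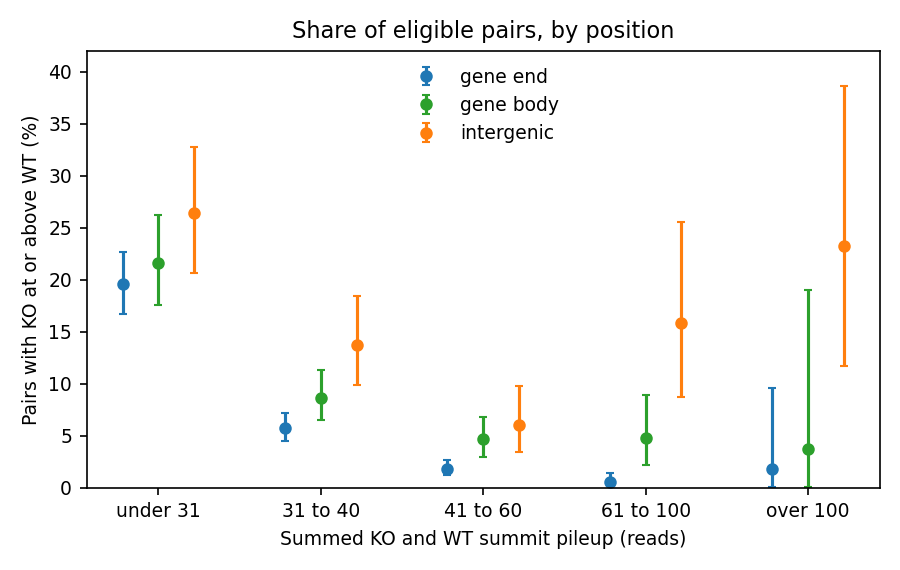
Share of eligible pairs that were members (vertical axis, percent), by summed KO and WT summit pileup and by position. Points are shares and bars exact 95% intervals, which cover counting error only. At 61 to 100 reads the intergenic share was 15.9% and the gene end share 0.575%.

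Annotated starts, which leave out 3′ ends, were counted apart, without chromosome 18. The KO summit lay within 1000 bp of a start in 35.0% of members (181 of 517, 30.9 to 39.3%) and in 56.4% of other pairs (3352 of 5944, 55.1 to 57.7%). With over 60 reads this was 3 of 38 members and 670 of 1012 other pairs. Summits near a start sat just before it in both sets, at a median of 30 bases before it in members and 49 bases in other pairs. Intergenic members lay a median of 36.7 kb from the nearest protein-coding gene, and other intergenic pairs 28.9 kb.

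The region that stood out among well-covered members lay beside Cd4, which encodes the coreceptor of helper T cells. At chr6:124900361-124900730, between Cd4 and Lag3, an inhibitory receptor gene, KO had 54 reads (exact Poisson interval 40.6 to 70.5) and WT had 31 (21.1 to 44.0). The KO share of the reads was 63.5% (52.4 to 73.7%), and its ratio of 1.74 was followed among the 38 members with over 60 reads by 1.17 at Kcnh1. It lay 11.96 kb from the high-coordinate end of Cd4 and 3.62 kb from Lag3. Its local background was 2.72 reads in KO and 3.02 in WT (ratio 0.901). Background knowledge places an enhancer used in DP thymocytes upstream of Cd4, and Cd4-cre transgenes carry Cd4 regulatory sequence. Reads from transgene copies were not tested, and since KO mice carry the transgene and WT mice do not, they and a change at the native site cannot be told apart. A second pair inside Cd4, at chr6:124885153-124885486, held 58 reads in KO and 18 in WT but was no member, because its KO local background was 9.30 reads, against 1.86 in WT.

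The largest ratio of all members was at chr16:45352911-45353231, inside the lncRNA gene Gm30636 and 28.9 kb from Cd200, which encodes a membrane glycoprotein that signals to myeloid cells. KO had 27 reads there (17.8 to 39.3) and WT had 12 (6.20 to 20.96), a KO share of 69.2% (52.4 to 83.0%). The counting intervals of the 2 groups overlapped. Local backgrounds were 1.32 reads in KO and 1.37 in WT (ratio 0.962).

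Ctcf encodes the zinc finger protein that, with cohesin, shapes chromatin loops. Its gene-end member had 19 reads in KO (11.4 to 29.7) and 10 in WT (4.795 to 18.4), with intervals that overlapped. The highest points were not at the same place: the KO summit lay 430 bases before the annotated start and the WT summit 210 bases before it, inside the window printed above. At Jtb, a gene-end member outside the naming rule and named after its values were seen, KO had 17 reads and WT had 10. The Jtb summits were 252 bp apart, in regions of 282 bp in KO and 692 bp in WT.

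Other members with a high lower bound of the KO share were mostly away from protein-coding gene ends. A wide region of 976 bp in KO and 1114 bp in WT, 8.25 kb from the splicing gene Snrpe, had 26 reads in KO and 15 in WT, with summits 582 bp apart. A site 23.1 kb from Aga, a lysosomal enzyme gene, had 32 reads in KO and 21 in WT. Sites at the ends of 2310008N11Rik and of Gm13331 had 24 and 25 reads in KO, against 14 and 16 in WT. Inside Kcnq1, a potassium channel gene in an imprinted cluster, KO had 31 reads and WT 23, and inside Sdccag8, a centrosome gene, KO had 30 and WT 22. After the region near Snrpe, the widest member in KO was inside Dlgap2, a postsynaptic scaffold gene (735 bp). It had 38 reads in KO and 37 in WT, with summits 426 bp apart. Next were those inside Cldn34d (713 bp, 76 in both) and at the end of Cisd2 (711 bp, 18 in KO and 17 in WT). Each of these pairs had Poisson intervals that overlapped between the groups.

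**Figure D3:**
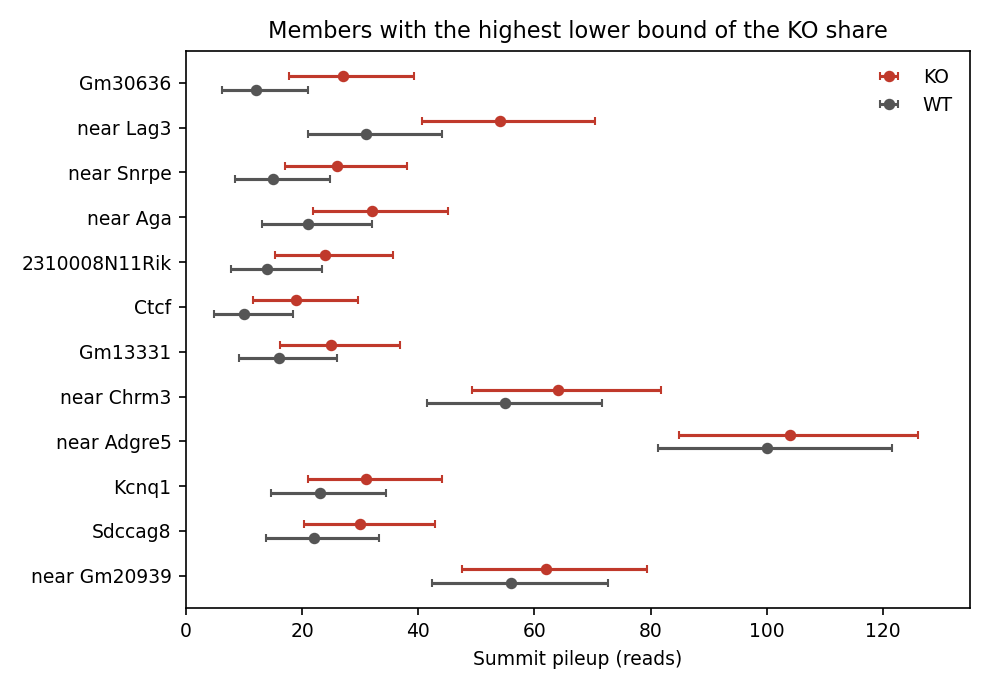
KO and WT summit pileup (horizontal axis, reads) of the 12 members with the highest lower bound of the KO share. Points are the solved pileups and bars exact 95% Poisson intervals of counting error (the 12 were chosen for this difference). The intervals overlap in every row, including 54 reads in KO and 31 in WT near Lag3.

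The strongest members were sites of nearly equal pileup in both lists. Of the 38 members with over 60 summed reads, KO was within 5 reads of WT in 34 and within 10 in 37, and the exception was the region beside Cd4. Between genes, the pair 8.19 kb from Rimbp3 had 107 reads in KO and 107 in WT. The pair 15.4 kb from Adgre5, the gene of the leukocyte adhesion receptor CD97, had 104 in KO and 100 in WT, and that 14.8 kb from Dpy19l2 had 95 in KO and 94 in WT. Pairs 35.2 kb from Pak3 and 56.9 kb from Gm9631 had 89 reads each in KO, against 89 and 88 in WT. The pair 43.4 kb from Slc25a33 had 67 in KO and 65 in WT.

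Inside genes, the strongest members lay in genes of varied function. Cldn34d had 76 reads in KO and 76 in WT, and Dnah7b, an axonemal dynein gene, had 51 in KO and 47 in WT. Cntnap5b, of a neuronal adhesion family, had 40 in KO and 39 in WT, the potassium channel gene Kcnh1 41 in KO and 35 in WT, and Tmtc2 39 in KO and 37 in WT. At gene ends, Mir6236 had 81 in KO and 79 in WT. The lncRNA gene Gm32584 had 2 members, with 47 reads in KO and 46 in WT and with 31 in both. Ralgapa2, which encodes a regulator of Ral GTPases, had 42 in KO and 41 in WT. Metap1, a methionine aminopeptidase gene, had 32 in KO and 30 in WT, and Mir22hg, the host gene of miR-22, had 29 in KO and 28 in WT.

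The outlines of the strong members in both lists were compared with those of other strong pairs. Their median width was 324 bp in KO and 328 bp in WT, while other pairs with over 60 reads measured 403 bp in KO and 526 bp in WT. Both boundaries lay within 10 bp of each other in 24 of the 38 members and in 68 of the 1054 other pairs. The overlap was 96.5% of the joint span at the median in members and 81.5% in other pairs. Away from gene ends the contrast was smaller, at 96.8% in 33 members and 86.3% in 307 other pairs. With over 100 reads and away from gene ends it was 97.3% in 11 members and 95.8% in 59 other pairs, with median start differences of 4 and 6 bp, so the close outlines are not particular to members. Summed reads per 100 bp of width had a median of 26.3 in strong members and 16.1 in other strong pairs. Called outlines depend on the pileups that the rule used, so these contrasts are not independent of how the members were chosen.

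The ratio of local background in KO to that in WT had a median of 0.875 in the 38 strong members (quartiles 0.773 to 0.978) and 0.654 in the 1054 other strong pairs (0.593 to 0.726). Over all members it was 0.797, and over all other pairs 0.679, where depth alone gives 0.752. The window of the local background holds the peak's own reads, so pairs chosen for a high KO pileup have a higher ratio by construction, and these values say nothing about the surroundings.

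**Figure D4:**
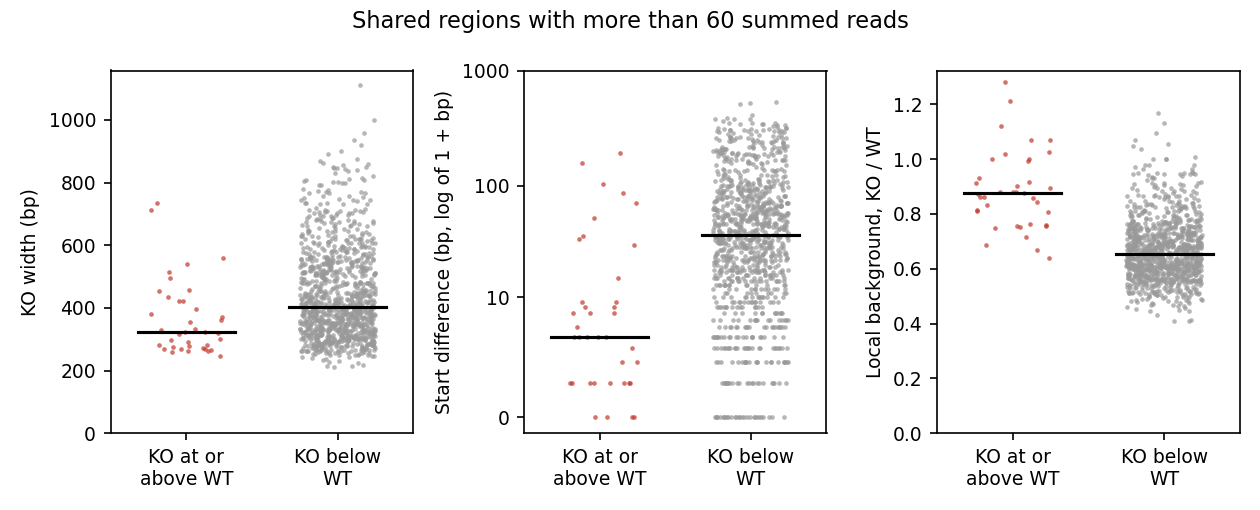
KO width, difference between KO and WT start positions, and ratio of local background in KO to WT, for the 38 members (red, left) and the 1054 other pairs (grey, right) with over 60 summed reads; black bars are medians. Points are single pairs and are spread sideways for legibility. The median start difference was 4 bp in members and 37 bp in other pairs.

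Pairs on both sides of the threshold had much the same values. Just inside it, with equal pileups, were the pairs near Rimbp3, near Pak3 and in Cldn34d, and a pair 7.55 kb from Ric8b with 46 reads in KO and 46 in WT. Just outside it, with 1 read fewer in KO, were pairs 31.998 kb from Eea1 (137 in KO, 138 in WT), inside Gm30821 (108 in KO, 109 in WT), inside Dop1b (66 in KO, 67 in WT) and 266.7 kb from Cntnap2 (62 in KO, 63 in WT). In all, 248 eligible pairs were 1 read short.

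Of 65 list genes with an eligible pair at a gene end, 2 had a member there, Ctcf and Sh2d1a. The background is 5.82% of all gene-end pairs, and so small a count does not set the lists apart from it. Sh2d1a encodes SAP, the adaptor through which SLAM receptors signal in iNKT selection, and was the 1 gene of 6 in the iNKT list; it had 14 reads in KO and 10 in WT (chrX:42502390-42502800). The counts were 0 of 3 for DP identity, 0 of 6 for positive selection, 0 of 15 for CAF-1 and other histone chaperones, 0 of 7 for V(D)J recombination and end joining, 0 of 5 for survival and death, 0 of 12 for replication and cell cycle, and 0 of 8 for housekeeping genes. The chromatin list had 1 of 4. Effector genes had 0 of 2 and natural killer markers 0 of 3. The progenitor, B cell, myeloid, erythroid and stromal lists had 0 genes with an eligible pair at a gene end.

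Inside gene bodies, T lineage genes with members included Arpp21 and Gata3. Arpp21, an RNA-binding protein gene used strongly in DP thymocytes, had 29 reads in KO and 25 in WT at chr9:112217224-112217557, with the KO summit 41 bases before an annotated start inside the gene. Its other eligible pair, at chr9:112207838-112208192, was no member, with 21 reads in KO and 35 in WT. The KO shares were 53.7% (39.6 to 67.4%) at the member and 37.5% (24.9 to 51.5%) at the other pair, and both intervals held 50% and the 42.9% given by depth, so neither direction was resolved. Gata3, a transcription factor of T cell commitment and the helper lineage, had 16 in KO and 16 in WT (chr2:9879589-9879788). Of 8 eligible pairs inside DP identity genes 1 was a member, and of 13 inside iNKT genes 1 was, beside 9.78% of all gene-body pairs.

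As a check of the labelled cell type, 3 of 14 DP marker genes had any region in the gene or within 1000 bp in KO and 12 of 14 in WT, and 4 of 30 markers of other lineages did in KO and 7 of 30 in WT. The cells were sorted as CD4+CD8+. Rag1, Rag2, Cd3g, Cd3d, Themis, Tcf7, Bcl11b, Ptcra and Satb1 had a region in WT and none in KO, so most of these markers did not show the labelled cell type in the KO list. That list held 7645 regions, against 15215 in WT. Cd4 was among the markers with a KO region, where transgene reads and the native gene cannot be told apart.

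Base composition was read in the promoter windows. The KO summit lay inside a window in 132 members and 2617 other pairs. The median G and C content was 62.5% in member windows and 62.7% in those of other pairs, with 22 and 23 CpG dinucleotides, a difference that was not tested, while all 32619 windows had 53.0% and 7. The windows of Metap1 and Ctcf printed above hold 39 and 47 CpG dinucleotides, and that of Arpp21 holds 1. The KO summit at Ctcf lay outside its printed window, 430 bases before the start, so that count does not describe the KO summit.

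The motifs searched, on both strands, were CCGGAAGT (ETS), TGTGGT (RUNX), CAGCTG and CAGGTG (E-boxes), CCAAT (NFY), TGACGTCA (CREB/ATF), GGGCGG (SP/KLF), TGANTCA (AP-1), TTCCCGC (E2F) and TAGGTCA (ROR), with exact forms of the longer CTCF core, NRF1, ZNF143, YY1 and IRF motifs. The CCAAT letters were in 40.2% of member windows (53 of 132, 31.7 to 49.0%), 57.0% of other pairs' windows and 37.6% of all windows. With under 31 reads the share was 21.6% in members (16 of 74, 12.9 to 32.7%) and 37.2% in other pairs, and with 31 or more it was 63.8% and 59.9%. TGTGGT was in 18.2% of member windows (24 of 132, 12.01 to 25.8%), 11.4% of other pairs' windows and 16.6% of all. With under 31 reads it was in 18.9% of member windows (10.7 to 29.7%) and 13.4% of other pairs' windows. With 31 or more it was in 17.2% (8.59 to 29.4%) and 11.1%. For TGTGGT the member interval held the share of the other pairs within each read group. For CCAAT with under 31 reads it did not. GGGCGG was in 72.7% of member windows, 75.2% of other pairs' windows and 35.9% of all, and CCGGAAGT in 7.58%, 9.63% and 3.91%. For each of the remaining 11 motifs the interval of the member share held the share of the other pairs.

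The Arpp21 window held TGTGGT at 105 bases before the start, CAGCTG at 91 bases before it, and CAGGTG or its complement at 3 places. Metap1 held GGGCGG or its complement 6 times and CAGGTG once. Mir22hg held 2 CCAAT boxes, 2 GGGCGG and 1 TGTGGT, and Ctcf 1 complement of GGGCGG. These matches did not overlap one another and describe letters, not bound sites.

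Members at gene ends without a protein-coding gene were 35 of 389 such pairs (8.997%, 6.35 to 12.3%), against 5.49% of 3770 with one. Ends with a lncRNA gene and no protein-coding gene gave 15 of 253 (5.93%, 3.36 to 9.59%), near the protein-coding share. Among ends with neither of those, small RNA genes gave 7 of 48 (14.6%, 6.07 to 27.8%) and pseudogenes 10 of 63 (15.9%, 7.88 to 27.3%). The following were chosen for mention after their values were seen. The 5S-like gene n-R5s194 had 22 reads in KO and 22 in WT, and the 7S RNA gene Rn7s2 had 20 in KO and 20 in WT. Antigen receptor segments gave 3 of 33: Trav15-1-dv6-1 had 19 in KO and 17 in WT, Trav13-5 had 12 in both, and Ighv1-76 had 16 in KO and 13 in WT.

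Members were scattered over the genome. By chromosome the share of eligible pairs ranged over 4.91% on chromosome 14 (13 of 265, 2.64 to 8.24%) up to 11.1% on chromosome 16 (29 of 261, 7.57 to 15.6%), and on X it was 10.97% (17 of 155). Neighbours within 100 kb were counted for each eligible pair in turn, so a pair near several others was counted several times. Of the neighbours of members, 7.49% were members (46 of 614). Of the neighbours of the other pairs, 7.68% were members (568 of 7392). In 50 kb bins, 524 bins held 1 member, 7 held 2 and 0 held more. One of the 7, named after its values were seen, held Il12rb2, a subunit gene of the interleukin 12 receptor, with 16 reads in KO and 14 in WT at one member and 17 in KO and 15 in WT at the other.

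The limit on local background left out 18 pairs with KO at or above WT. Of these, 10 lay at ends of ribosomal RNA genes on chromosome 8, with 38 to 59 reads in KO and 34 to 59 in WT, and 1 was the region inside Cd4. The Cd4 pair had a background ratio of 5.00, and the other 17 had ratios from 0.795 to 1.09.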

How the data were processed

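ATAC-seq of sorted DP thymocytes gave 1 peak list per group, each made by the authors from both replicates, so values per replicate were not used here. Per the submitters' processing notes, the tools were MACS2 2.1.4 and deepTools 3.4.1, with Trim Galore, FastQC, Bowtie2, Picard and GATK, on build mm10. Their order, settings, duplicate handling and any shift for the transposase cut are not given in the sources used here. The authors deposited for each region a score, a fold enrichment (a ratio) at the summit, and -log10 of p and q. The deposited score is 10 times -log10 q without decimals and was not used further. Summit lists repeated the peak lists.

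Pileup and local background were solved from fold enrichment, (pileup + 1) / (background + 1), and p, a Poisson tail. All lines (100%) gave a whole pileup at a tolerance of 0.05, with deviations of at most 0.00208, and local backgrounds lay on steps of 0.02. The genome background was the most frequent one and gives relative depth. Library totals were not used here. The solver and the pairing were tested on simulated data.

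Position used the union of both intervals and RefSeq genes of GRCm38.p6, and sequences are from RefSeq promoter and miRNA tables of that build. All 241 list genes matched. No test was made. Shares carry exact Clopper-Pearson intervals and single pileups exact Poisson intervals. Members, lists and settings were chosen with earlier results of these data known. Named pairs are the 12 highest lower bounds of the KO share, the 6 strongest per position, the 4 strongest just inside and just outside the pileup rule, the 4 widest members, and list genes; some are given only as part of a count or are not reported here. Figures were drawn with matplotlib 3.10.9, and values computed with scipy 1.17.1, pandas 2.3.3 and numpy 2.4.6 in Python 3.11.15.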

Additional observations from a re-analysis of the deposited data

How the results depend on the processing

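Reported were 538 members, 8.04% of eligible pairs, with 45.0% at gene ends and a median log2 ratio of 0.11. Requiring KO above WT left 356 members, 5.32% of pairs, with a median log2 ratio of 0.18. Scaling KO by depth gave 2009 members, 30.0% of pairs, with 52.4% at gene ends and a median log2 ratio of -0.19. That ratio compares the unscaled pileups, and the scaled rule admits pairs with KO below WT. A -log10 q of at least 5 in both lists gave a share of 7.05%, and at least 10 gave 126 members, 5.198% of pairs, with 30.2% at gene ends and a median log2 ratio of 0.072. With at least 60 summed reads the share was 3.37% and 12.8% of members were at gene ends. A background limit of 2 times gave a share of 9.40%. The gene-end share was 40.5% with a window of 500 bp, 50.7% with 2000 bp and 38.5% with protein-coding genes only. The cause of these shifts was not tested. Reciprocal overlap of 50%, summits at most 100 bp apart, no background limit and autosomes only left all 4 values within their counting intervals or within 1.5 times the count. No paired analysis was possible because each list pools both replicates, and for the same reason leaving out a replicate was not run. Depth limits single pairs: the Poisson intervals of KO and WT overlap for each of the 12 pairs with the highest lower bound of the KO share. These intervals are not scaled for depth, and their overlap is no test of equality. The interval of the KO share lay above 50% near Lag3 (52.4 to 73.7%) and in Gm30636 (52.4 to 83.0%), pairs that were picked for this bound.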
